A study of Mus musculus with 17 samples.

Results

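The data set CD8 T cells that were primed on liver sinusoidal endothelium (LSEC, its cells) against CD8 effector T cells activated by dendritic cells. The samples were chosen by their titles alone, which name LSEC-primed T cells (samples 4, 7, 14 and 15) or dendritic-cell-activated effector cells (samples 6, 8, 10, 16 and 17), so 9 of the 17 samples of the series were compared. All came from OT-I mice on a C57Bl/6 background aged 2 to 6 months, and OT-I mice carry a transgenic T cell receptor for an ovalbumin peptide shown by MHC class I. The labels give the source as an LSEC coculture for the 4 LSEC-primed samples, a coculture with splenic dendritic cells for effector samples 6, 10, 16 and 17, and spleen for effector sample 8. LSEC-primed sample 4 is labelled LSEC-primed as its cell type, whereas samples 7, 14 and 15 are labelled Tpm, the short form of partial memory T cell in the series title. No dose, duration or antigen of the cocultures is given in the labels, and none tells if the replicates stem from different animals or cultures. The p-values here therefore cover the spread among these samples alone, which may be technical in part. The other samples of the series, 5 of naive cells and 3 of memory cells 3 months after infection with Listeria carrying ovalbumin, entered the estimate of the spread, and their levels are given beside some genes.

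LSEC line the liver's capillaries, take up antigen from the blood and present it to CD8 T cells without the strong costimulation that dendritic cells provide. Full activation by dendritic cells brings interleukin 2 and interleukin 12 signalling, division, a switch to glycolysis and lipid synthesis, and the cytotoxic programme. LSEC priming is known for cells that stay non-cytotoxic at first and can respond later. The comparison asks how the transcripts of the 2 outcomes differ.

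Levels are log2 values of quantile-normalised bead intensity, and the values of a gene are given for LSEC-primed samples 4, 7, 14 and 15 and for effector samples 6, 8, 10, 16 and 17 in that order. The mean intensity of the 9 arrays ran between 226.7 and 471.1, and 28.97% to 32.75% of probes lay above the background level. Of all 17 arrays that of memory sample 5 was the dimmest, with a mean intensity of 96.74 and 15.4% of probes above background. It entered the normalisation, the estimate of the spread and the memory means. The number of arrays limits the precision. Cd3e, a chain of the T cell receptor complex, lay at 12.85 to 13.25 in LSEC-primed samples and at 12.23 to 12.58 in effector samples, and Cd8b1, the CD8 beta chain, at 13.56 to 13.95 and at 12.76 to 13.06 in the same order of groups. The Cd8a probe was above background on 1 LSEC-primed array and on no effector array, so the label of CD8 T cells was checked on Cd8b1. On the first principal component of the 9 samples, with 58.1% of the variance, LSEC-primed samples lay between 25.2 and 52.2 and effector samples between -39.2 and -26.0. The second component, with 18.6%, placed LSEC-primed samples 14 and 15 at -33.7 and -24.2 and samples 4 and 7 at 8.54 and 30.8, and effector samples 16 and 17 at -10.1 and -10.3 and samples 6, 8 and 10 at 7.03 to 19.0. In both groups it therefore split the samples numbered above 10 from the others, and what the numbers stand for is not labelled. The Y-linked gene Eif2s3y stood at 10.67 in LSEC-primed sample 14 and 10.77 in effector sample 17, against 5.75 to 6.08 in the 7 others. Samples 14 and 17 thus held RNA of male cells and differ in this from the rest of their groups. The part of sex in the spread within the groups was not tested.

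LSEC-primed samples 14 and 7 stood apart from the rest of their group. In sample 14, 120 genes lay at least 2-fold above each of the 3 other LSEC-primed samples, against 1 to 34 such genes in those samples. Sample 7 had the most genes at least 2-fold below each of the others, 79, against 27 in sample 14 and 1 each in samples 4 and 15, and its array weight, 0.654, was the lowest of the 9 arrays, against 0.805 to 1.74 for the others. Lyz1, which encodes a lysozyme of myeloid cells, lay at 8.49, 8.45, 13.28 and 8.44 in LSEC-primed samples and at 5.89 to 6.23 in effector samples. C1qb, a complement chain made by macrophages, was above background on the sample 14 array alone (9.40, against 5.91 to 6.15 on the 3 others and 5.78 to 6.02 in effector samples). The summed level of 14 macrophage markers, on the linear scale, ran from 1264 to 14776 in LSEC-primed samples with the highest in sample 14, and from 873 to 921 in effector samples, where 13 of the 14 were above background on no array. Of these macrophage markers, Clec4f, which marks Kupffer cells, was above background on no array of either group. H2-Ab1, Lgals3 and other genes for which sample 14 differed are given with its own value.

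Endothelial and stromal transcripts were present in all 4 LSEC-primed samples. Of 31 LSEC markers 17 were called higher, 1 was called lower and 13 were not called, with a median log2 difference of 0.55 against 0.01 over all genes tested, where 9.51% of genes were called higher and 8.24% lower. Their summed level ran from 6754 to 9824 in LSEC-primed samples and from 3135 to 3511 in effector samples. Angpt2, the vessel growth factor angiopoietin 2, lay at 10.13, 10.42, 8.97 and 10.23 in LSEC-primed samples, against 5.94 to 6.09 in effector samples, at least 12.4-fold higher (adjusted p = 5.48e-08, Benjamini-Hochberg, from limma, n = 4 and 5). Igfbp7, a secreted binding protein of endothelium, lay at 11.23, 11.79, 11.04 and 11.33, against 7.73, 8.16, 8.01, 7.76 and 8.06, a log2 difference of 3.40 (SE 0.47, adjusted p = 5.74e-05). Every LSEC-primed sample exceeded every effector sample for both genes. The endothelial receptor Robo4 was at least 4.56-fold higher, the scavenger receptor Lyve1 at least 2.3-fold and Plvap, of the diaphragms of endothelial pores, at least 3.63-fold, while Kdr, Flt1, Flt4 and Tie1 were above background on no array of either group. The scavenger receptor Stab1 went the other way (7.72 to 7.80 in LSEC-primed samples and 9.13 to 9.51 in effector samples, log2 difference -1.49, SE 0.14).

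Of 16 markers of stellate cells and fibroblasts 7 were called higher and none lower, with a median of 0.36. The matrix genes Bgn, Col4a1 and Dcn were at least 7.6-fold, 5.88-fold and 5.07-fold higher. The summed levels of the 16 overlapped between the groups, at 7694 to 13364 in LSEC-primed samples and 7229 to 11214 in effector samples. Of the 16, 6 were above background on no LSEC-primed array and 14 on no effector array. In naive samples 15 of the 16, all but Thy1, were above background on no array, and the sum still ran from 6368 to 11801. The sum therefore mostly reflects Thy1 and does not compare the other markers. No hepatocyte, erythroid or neutrophil marker was called among 10, 8 and 9 measured. The samples are bulk RNA, in which fewer cells of a type and less RNA per cell cannot be told apart. The design text says the T cells were isolated or sorted before lysis, with no gate named. The part of endothelial, stromal or myeloid RNA in the genes higher in LSEC-primed samples was not tested.

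**Figure D1:**
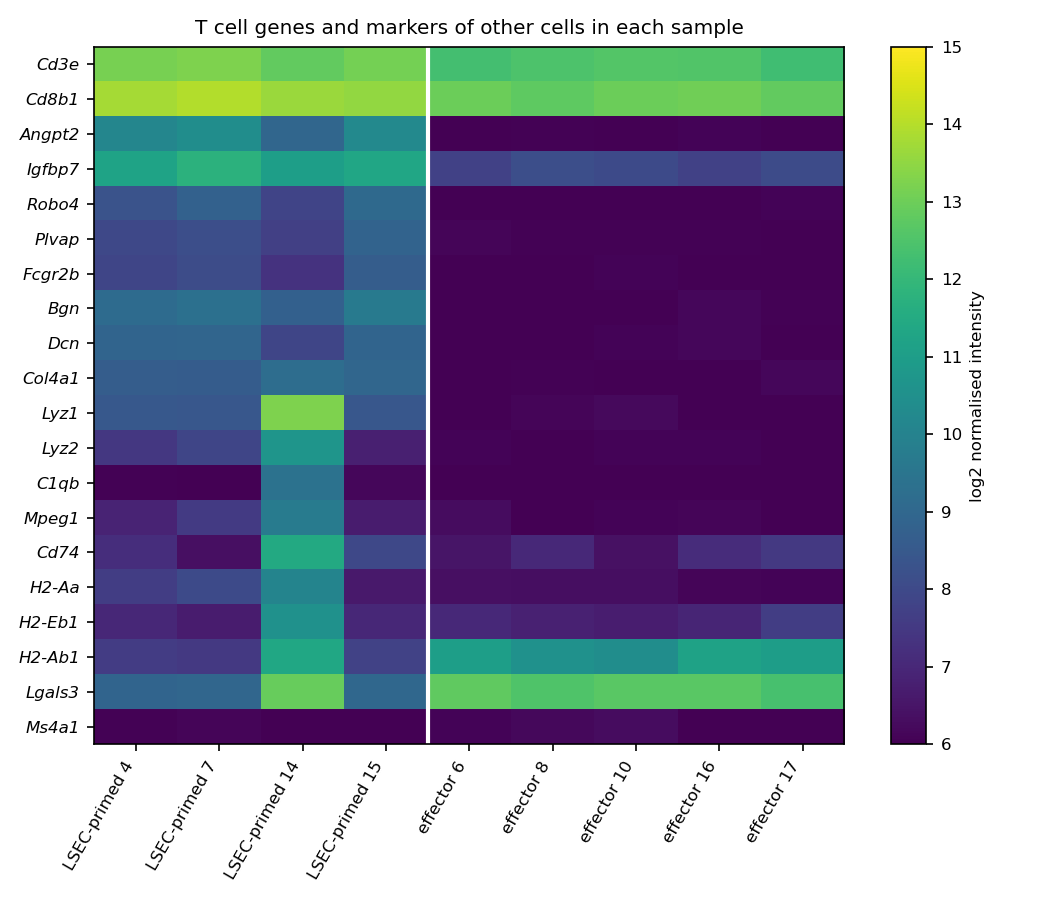
Heat map of log2 normalised intensity of T cell genes (top 2 rows) and markers of endothelial, stromal, myeloid and B cells (rows below) in each LSEC-primed sample (left of the white line) and effector sample (right). Lyz1 stands at 13.28 in LSEC-primed sample 14 and at 8.44 to 8.49 in the 3 others, while Angpt2 is at 8.97 to 10.42 in all 4 and at 5.94 to 6.09 in effector samples.

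Of 16462 named genes tested, 2921 (17.7%) were called at an adjusted p under 0.05 by limma, 1565 of them higher in LSEC-primed samples and 1356 lower. A change of at least 2-fold was also met by 889 genes (5.4%), 406 of them higher (2.47%) and 483 lower (2.93%), and a called change of at least 4-fold by 62 higher and 98 lower genes. For 3020 genes (18.3%) all values of one group lay above all values of the other. For 229 of the genes called higher a lower bound of the fold could be given, because they were above background in LSEC-primed samples but on no effector array. For 148 of those called lower the same held with the groups exchanged. Called genes above background in neither group were left out of these counts. With median scaling, which shifts every array to the same median and leaves its distribution alone, 1276 genes were called, of which 31.2% were higher, against 53.6% of the calls above. Without LSEC-primed sample 14 the calls numbered 2969, of which 2650 were among the 2921. Where a gene had several kept probes they often differed in size: averaging them in place of the brightest brought the log2 difference of 60 of 283 named genes nearer to 0 by more than 1.5 times and reversed none. Among the genes described below, Rgs3 then stood at 0.39, Cdk1 at -0.70, Top2a at -1.07, Gbp2 at 0.82, Heatr1 at 0.43, Itgae at 2.21, Ifi213 at 2.71, Aldoc at -2.15 and Fdps at -1.90. Of the genes given with a fold as a lower bound, Angpt2 then stood at a log2 difference of 2.06, Robo4 at 0.81, Dcn at 1.235 and Ifit3 at 1.15. Such bounds hold for the brightest kept probe only.

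**Figure D2:**
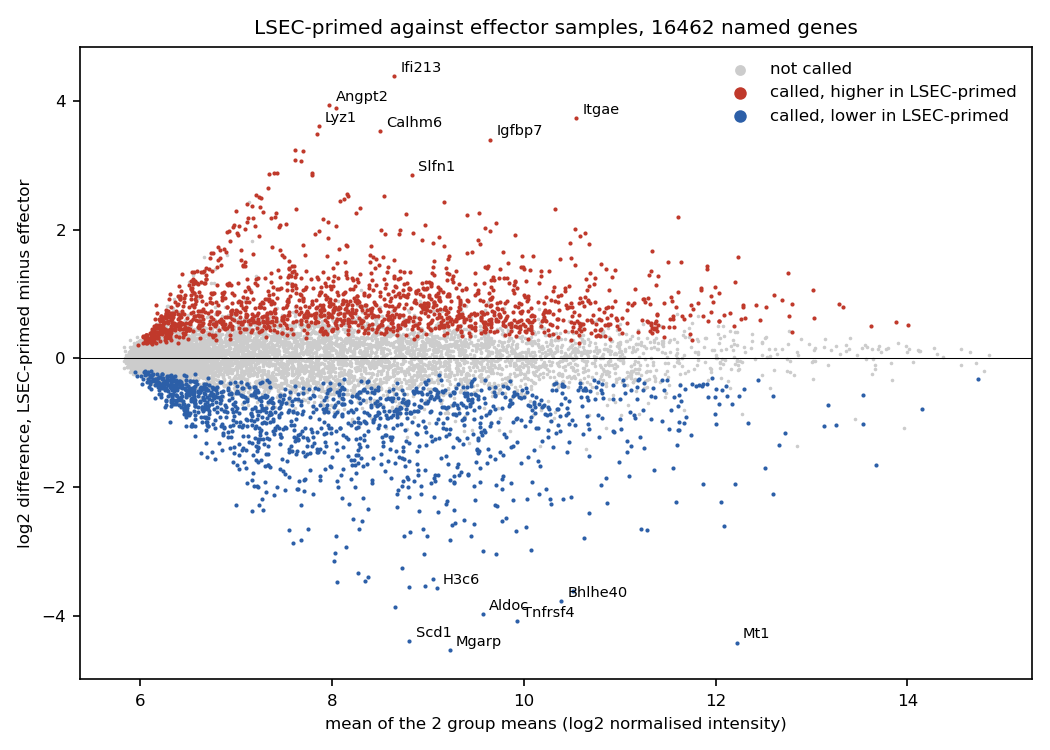
Log2 difference, LSEC-primed minus effector, of each named gene (vertical axis) against the mean of the 2 group means (horizontal axis, log2 normalised intensity), with called genes in red (higher in LSEC-primed) and blue (lower). The lowest points include Mgarp at -4.54, Mt1 at -4.42 and Scd1 at -4.40, and the highest is Ifi213 at 4.40.

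The list median farthest from 0 was that of the hypoxia response, which was lower in LSEC-primed samples. Lists of the hypoxia response, glycolysis, cholesterol synthesis, mitosis, replication-dependent histones and DNA replication had median log2 differences of -1.73, -1.68, -1.54, -1.48, -1.30 and -0.92, against 0.01 for all genes tested, and none of their members was called higher. The histone list was drawn up after the values were seen. At the other end stood the list named chemokines of T cells, which also holds Cxcl9, Cxcl10 and Cxcl16, with a median of 1.35. Leaving aside the lists of cell markers, the interferon-gamma-induced GTPases followed with 0.57, the GIMAP GTPases with 0.53 and the type I interferon-stimulated genes with 0.44. Many immune lists held members in both directions around a median near 0, among them the transcription factors, the receptor lists and the adhesion molecules.

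**Figure D3:**
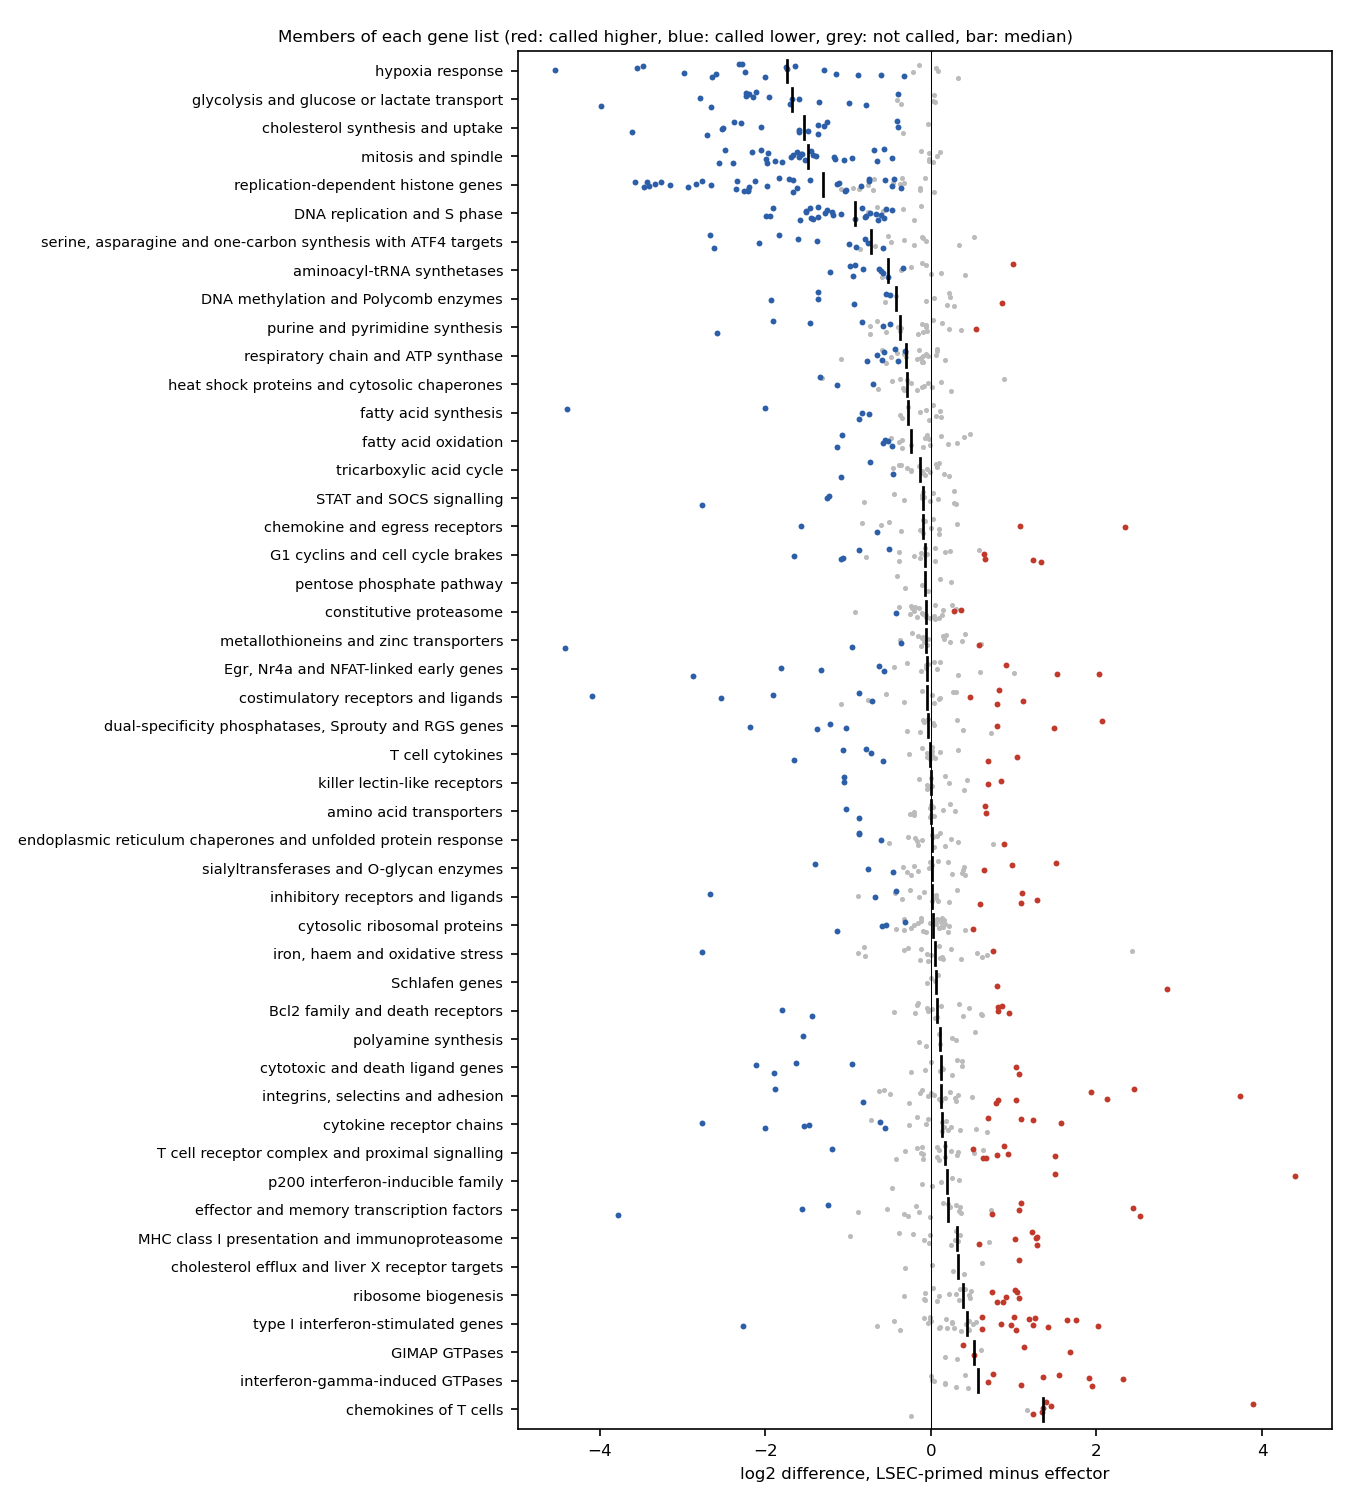
Log2 difference, LSEC-primed minus effector (horizontal axis), of the measured members of each gene list (rows, sorted by median). The lists of cell markers are not drawn. Members called higher are red, members called lower blue, members not called grey, and the list median is a bar. Rows at the top (hypoxia response, glycolysis, cholesterol synthesis) hold no red points, and the row of chemokines at the bottom holds no blue point.

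Receptor chains of interleukin 2 and interleukin 12 and a feedback gene were lower in LSEC-primed samples. Il2ra, the alpha chain that gives the interleukin 2 receptor its high affinity, lay at 6.56, 6.78, 6.64 and 6.67 in LSEC-primed samples, against 9.70, 9.26, 9.32, 9.52 and 9.31 in effector samples. Every LSEC-primed sample lay far below every effector sample, and the log2 difference was -2.76 (SE 0.11, adjusted p = 7.95e-11 by limma). In naive samples Il2ra averaged 6.12 ± 0.19 (SD, n = 5) and in memory samples 7.73 ± 0.14 (n = 3). Cish, a feedback inhibitor of cytokine signalling induced through STAT5, lay at 6.73, 7.31, 8.39 and 7.05, against 10.13, 9.81, 9.79, 10.11 and 10.79, a log2 difference of -2.76 (SE 0.34, adjusted p = 1.88e-05). Sample 14 was the highest of the LSEC-primed samples and still below each effector sample. Il12rb2, the signalling chain of the interleukin 12 receptor, lay at 6.47, 6.59, 8.24 and 7.65, against 9.10, 9.32, 8.50, 9.54 and 9.72 (a fold of 0.25 of LSEC-primed over effector, adjusted p = 0.000345). LSEC-primed sample 14 came nearest to effector sample 10, and the groups did not overlap.

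Of 24 measured cytokine receptor chains 6 were lower, 4 higher and 14 not called, with a median of 0.14. Il18r1, the interleukin 18 receptor chain, was lower by -1.53 (SE 0.34), with LSEC-primed sample 7 at 8.67 above effector sample 17 at 8.33, and Il1r2, the decoy receptor of interleukin 1, was at least 2.04-fold lower. Il27ra and Il6st, chains of the interleukin 27 receptor of which Il6st also serves interleukin 6, were higher by 1.57 (SE 0.14) and 1.23 (SE 0.20). Of 16 STAT and SOCS genes 3 were lower (Cish, Socs2 by -1.26 and Stat3 by -1.23) and none higher, a share of 18.8% called that lies near the 17.7% of all genes. Median scaling left Il18r1, Il27ra and Stat3 without a call.

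Costimulatory receptors of the TNF receptor family showed some of the largest differences. Tnfrsf4, which encodes OX40 and is induced on activated T cells, lay at 7.75, 7.58, 8.58 and 7.63 in LSEC-primed samples, against 11.89, 11.56, 11.87, 11.94 and 12.60 in effector samples (log2 difference -4.09, SE 0.26, adjusted p = 1.86e-08 by limma). All LSEC-primed samples were far below all effector samples, and naive samples averaged 7.34 ± 0.16 (SD, n = 5). Tnfrsf4 is also 1 of 7 CD4 T cell markers, and the only 1 of them called, at a list median of -0.06. Their summed level, which includes Tnfrsf4 itself, was 3595 to 6860 in LSEC-primed samples and 8661 to 11599 in effector samples. The Cd4 probe itself was above background on no LSEC-primed array and on 1 effector array, at 5.97 to 6.27. Tnfrsf18, which encodes GITR, was lower by -2.54 (SE 0.36) and Tnfrsf9, which encodes 4-1BB, by -1.91 (SE 0.29). In all, 5 of 20 costimulatory genes were lower, 4 were higher and the median was -0.05. The highest was Cd86, better known as a ligand on antigen-presenting cells, at 1.11 (SE 0.18).

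Inhibitory receptors and ligands divided. Cd274, which encodes the inhibitory ligand PD-L1, lay at 9.63, 9.79, 10.69 and 9.49 in LSEC-primed samples, against 8.62, 8.47, 8.57, 8.48 and 8.96 in effector samples (log2 difference 1.28, SE 0.20, adjusted p = 0.000206 by limma). The groups did not overlap, and sample 14 was the highest. Nt5e, which encodes the adenosine-forming enzyme CD73, and the receptor gene Cd160 were higher by 1.10 (SE 0.17) and 1.09 (SE 0.17). These 3 calls were lost with median scaling. Of 19 measured members 4 were higher, 3 lower and 12 not called. Ctla4 (11.96 ± 0.51 in LSEC-primed samples and 12.31 ± 0.20 in effector samples, SD) and Lag3 (10.24 ± 0.64 and 11.13 ± 0.39) were strong in both groups and not called, and the Pdcd1 probe was above background on no array of either group. Lgals3, which encodes galectin 3, lay at 8.90, 8.98, 12.91 and 9.00 in LSEC-primed samples, against 12.80, 12.53, 12.70, 12.68 and 12.38 in effector samples, so that sample 14 alone overlapped with the effector samples (log2 difference -2.67, SE 0.67, adjusted p = 0.00995). Without sample 14 the Lgals3 difference was -3.66.

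Transcription factors linked to effector and memory fate moved in both directions, with 3 of 23 lower, 5 higher and a median of 0.21. Bhlhe40, a helix-loop-helix repressor needed for cytokine output in T cells, lay at 8.23, 8.80, 8.93 and 8.03 in LSEC-primed samples, against 12.29, 12.22, 12.47, 11.96 and 12.44 in effector samples (log2 difference -3.78, SE 0.39, adjusted p = 2.93e-06 by limma). Irf4, whose level follows T cell receptor strength and which sustains expansion, lay at 8.07, 8.15, 8.60 and 8.61, against 9.83, 9.90, 9.91, 10.09 and 9.83 (log2 difference -1.55, SE 0.24, adjusted p = 0.000196). Neither gene's groups overlapped, and LSEC-primed levels were close to the naive means of 8.15 ± 0.91 and 8.17 ± 0.59 (SD, n = 5). Bcl6, a repressor tied to follicular helper and memory cells, lay at 9.81, 9.94, 9.17 and 8.80, against 7.31, 7.02, 7.26, 6.76 and 6.16 (log2 difference 2.53, SE 0.27, adjusted p = 4.45e-06). Klf2, a quiescence factor that drives the genes of lymphoid egress, lay at 10.49, 10.54, 9.19 and 11.31, against 8.20, 8.44, 8.00, 8.26 and 6.83 (log2 difference 2.44, SE 0.34, adjusted p = 6.46e-05). Both were higher in each LSEC-primed sample than in any effector sample, and Klf2 was higher still in naive samples (13.16 ± 0.09, n = 5). Id3, an inhibitor of E proteins found in memory precursors, was higher by 1.06 (SE 0.18), and Tox, a factor of chronic stimulation, by 1.09 (SE 0.31), a call lost with median scaling or without LSEC-primed sample 4 or 15 or effector sample 10. Eomes was at least 1.41-fold higher, and its call was lost when any sample other than LSEC-primed sample 14 was left out. Tbx21, which encodes the effector factor T-bet, lay at 7.10 to 7.68 in LSEC-primed samples and 6.83 to 7.61 in effector samples and was not called.

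Of 20 early genes of T cell receptor signalling 5 were lower, 3 higher and 12 not called. Egr3, induced by calcium and NFAT and linked to restraint of T cells, lay at 10.89, 10.81, 10.19 and 10.53 in LSEC-primed samples, against 8.92, 8.80, 8.75, 8.62 and 7.78 in effector samples (log2 difference 2.03, SE 0.29, adjusted p = 7.02e-05 by limma). Its relative Egr2 was higher by 1.53 (SE 0.29), and neither gene's groups overlapped. Batf3, an AP-1 partner, was above background on no LSEC-primed array (6.08 to 6.25) and lay at 8.99, 8.83, 8.67, 8.97 and 9.66 in effector samples, at least 6.43-fold lower in LSEC-primed samples (adjusted p = 9.89e-10). Junb was lower by -1.81 (SE 0.45), with LSEC-primed sample 14 at 9.20 above effector sample 10 at 9.06.

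**Figure D4:**
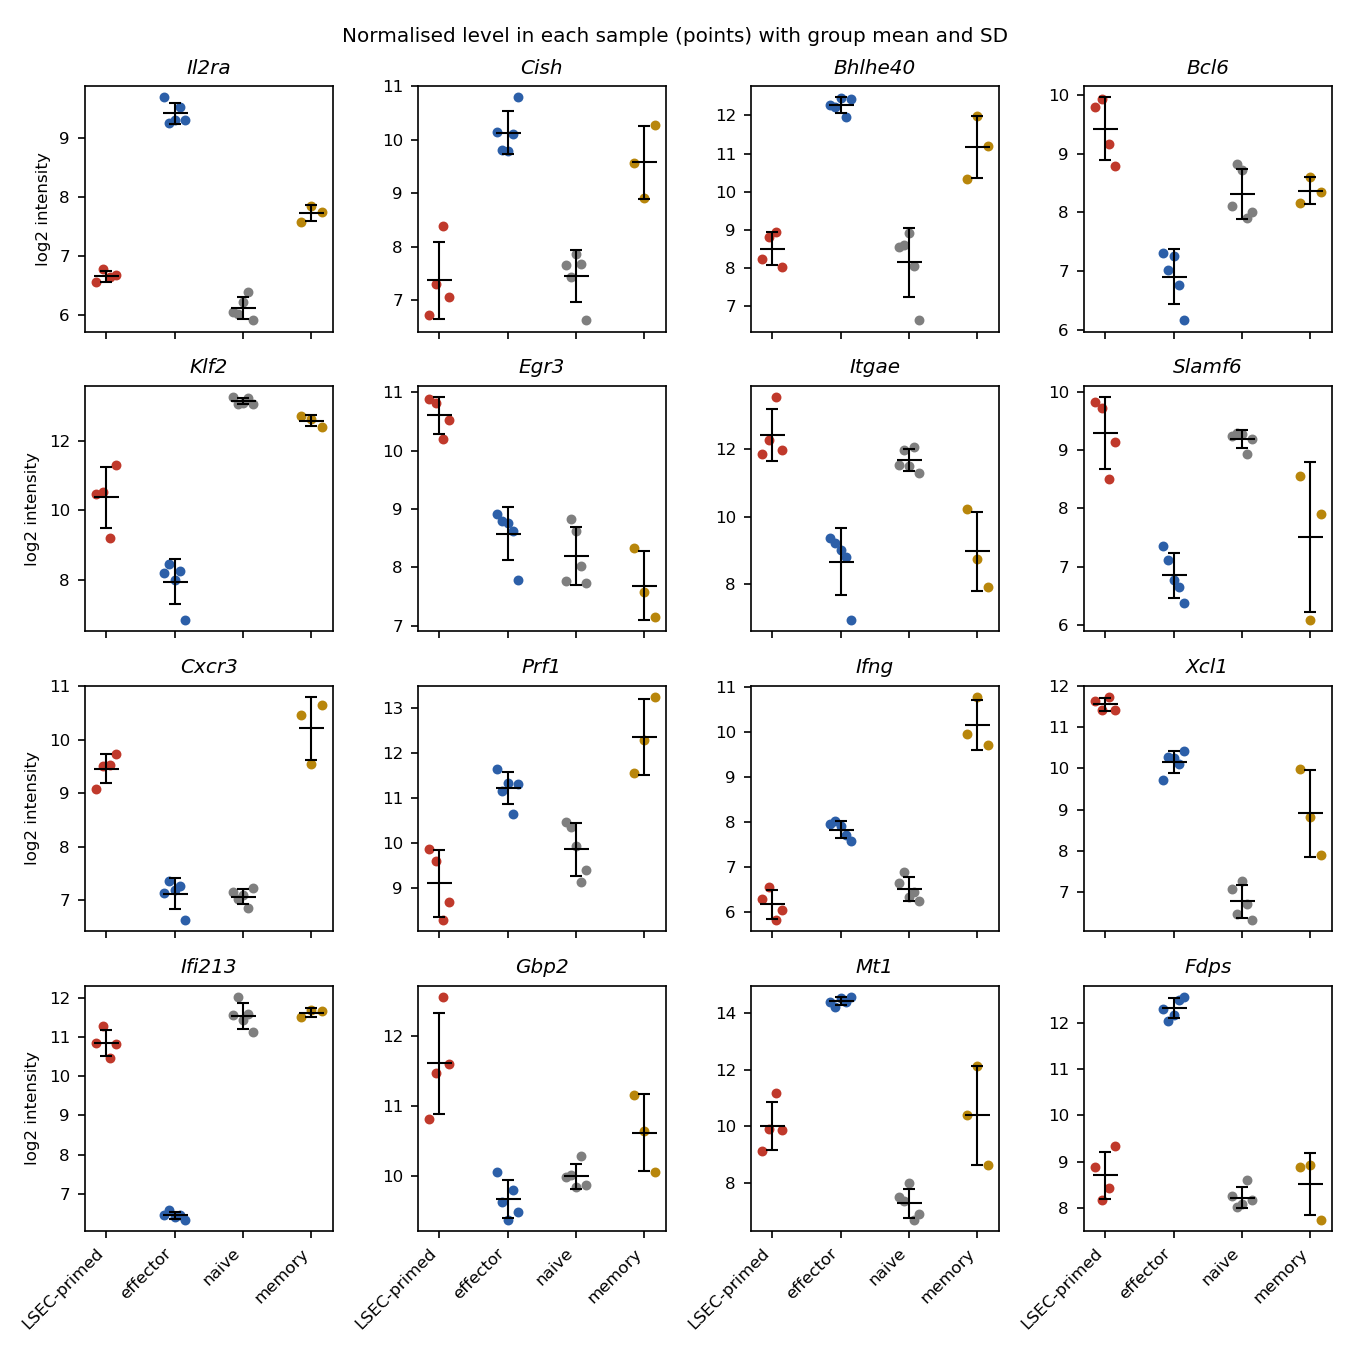
Log2 normalised intensity of 16 genes in each LSEC-primed, effector, naive and memory sample (points, left to right within each panel) with the group mean and SD as bars. Il2ra, Cish, Bhlhe40, Prf1, Ifng, Mt1 and Fdps are lower in the LSEC-primed samples than in the effector samples, and Bcl6, Klf2, Egr3, Itgae, Slamf6, Cxcr3, Xcl1, Ifi213 and Gbp2 are higher, with no overlap of these 2 groups.

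The cytotoxic genes Prf1 and Fasl and the cytokine gene Ifng were lower in LSEC-primed samples. Prf1, which encodes the pore protein perforin, lay at 9.85, 9.60, 8.28 and 8.68 in LSEC-primed samples, against 11.64, 11.15, 11.32, 10.64 and 11.31 in effector samples (log2 difference -2.11, SE 0.37, adjusted p = 0.00066 by limma). Fasl, the ligand of a death receptor, lay at 6.54, 7.14, 6.34 and 7.03, against 8.45, 8.47, 8.57, 8.77 and 9.02 (log2 difference -1.89, SE 0.19, adjusted p = 2.46e-06). Neither gene's groups overlapped, and memory means were 12.35 ± 0.85 for Prf1 and 9.25 ± 0.50 for Fasl (SD, n = 3), with at least 1 memory sample inside the effector range for each gene. Ifng, which encodes interferon gamma, lay at 6.28, 6.57, 5.82 and 6.03, against 7.95, 8.02, 7.92, 7.70 and 7.57 (log2 difference -1.66, SE 0.20), and a single LSEC-primed array had it above background. The Gzmb probe was above background on no array of either group, so granzyme B gave no value here. Of 16 cytotoxic genes 4 were lower and 2 higher, the granule genes Ctsw (1.06) and Lamp1 (1.02), both without a call under median scaling, and of 19 T cell cytokines 5 were lower, among them lymphotoxin alpha (Lta, -1.06, SE 0.19), and 2 were higher, Il16 (1.05) and Csf1 (0.69).

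Of 8 measured genes in the list named chemokines of T cells 6 were higher and none lower. The 6 include Cxcl9, Cxcl10 and Cxcl16, which other cells also make. Xcl1, which draws cross-presenting dendritic cells, lay at 11.64, 11.42, 11.74 and 11.42 in LSEC-primed samples, against 9.73, 10.29, 10.27, 10.10 and 10.43 in effector samples (log2 difference 1.39, SE 0.30, adjusted p = 0.00344 by limma). Ccl5, a chemokine for T cells and monocytes, lay at 8.10, 8.87, 9.60 and 8.69, against 7.46, 7.74, 7.38, 7.73 and 7.05 (log2 difference 1.34, SE 0.22, adjusted p = 0.000255). The groups did not overlap for either gene, although Ccl5 was higher by far in naive (10.72 ± 0.13, SD, n = 5) and memory samples (14.33 ± 0.18, n = 3). Cxcl9, which interferon gamma induces in many cell types, including endothelium and macrophages, lay at 9.57, 10.23, 9.75 and 10.40 in LSEC-primed samples and was above background on no effector array, at least 12.8-fold higher. Cxcl10 and Cxcl16 were at least 1.95-fold and 2.39-fold higher, Cxcl16 with 8.89 in sample 14 against 6.98 to 7.21 in the 3 others. With median scaling 3 of the 6 calls were lost, those of Xcl1, Ccl4 and Ccl5, while Cxcl9, Cxcl10 and Cxcl16 kept theirs. These genes stand beside the endothelial markers given above, which were higher in the same 4 samples, and the part of those cells was not tested.

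Among adhesion and trafficking genes the widest difference was that of a tissue integrin. Itgae, the alpha chain of CD103, which binds E-cadherin, lay at 11.87, 12.26, 13.54 and 11.98 in LSEC-primed samples, against 9.37, 9.24, 9.01, 8.82 and 6.94 in effector samples (log2 difference 3.74, SE 0.50, adjusted p = 4.22e-05 by limma). Sample 14 was the highest and effector sample 17 the lowest, the difference was 2.86 between samples 4 and 7 and effector samples 6, 8 and 10, and 4.88 between samples 14 and 15 and effector samples 16 and 17. Naive samples held a level near that of LSEC-primed samples (11.68 ± 0.33, SD, n = 5). Slamf6, a self-binding receptor of less differentiated T cells, lay at 9.84, 9.73, 8.50 and 9.14, against 7.36, 7.11, 6.78, 6.65 and 6.37 (log2 difference 2.45, SE 0.38). Icam2, a ligand of the integrin LFA-1, lay at 9.36, 9.19, 8.25 and 9.28, against 6.90, 6.74, 7.05, 6.77 and 7.00 (log2 difference 2.13, SE 0.18). Both were higher in every LSEC-primed sample, with sample 14 the lowest of its group. Endothelial cells also express Icam2.

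Cxcr3, the receptor for Cxcl9 and Cxcl10, lay at 9.07, 9.51, 9.52 and 9.73 in LSEC-primed samples, against 7.13, 7.36, 7.19, 7.27 and 6.62 in effector samples (log2 difference 2.34, SE 0.20, adjusted p = 3.34e-07 by limma). The receptor and its ligand gene Cxcl9 were thus both higher in each of the 4 LSEC-primed samples. Cxcr4, a receptor of marrow and lymphoid homing, lay at 6.56, 6.80, 6.80 and 6.60, against 7.99, 8.60, 7.76, 8.40 and 8.55 (log2 difference -1.57, SE 0.22). Of 17 chemokine and egress receptors 2 were higher and 2 lower, 23.5% against 17.7% of all genes called, and Ccr7, the lymph node homing receptor, was not called (8.82 ± 0.37 in LSEC-primed samples and 9.18 ± 0.34 in effector samples, SD). Of 27 integrins, selectins and adhesion molecules 7 were higher, including Ly6c1 (1.93, SE 0.22), and 2 were lower, Slamf7 (-1.89, SE 0.18) and Cd44 (-0.82, SE 0.21), whose call was lost without LSEC-primed sample 7 or with median scaling. The activation marker Cd69 did not pass the test (11.06 ± 0.17 and 10.94 ± 0.26).

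In the list of T cell receptor chains and proximal signalling, with 26 measured, 7 were higher and 1, Themis, a thymocyte signalling protein, was lower (-1.20, SE 0.17). Cd6, a coreceptor that binds ALCAM, was the highest at 1.49 (SE 0.13). None of the 7 kept its call with median scaling, and Themis did. Among dual-specificity phosphatases and regulators of G protein signalling, Rgs1, a brake on chemokine receptors, was lower by -2.18 (SE 0.21) and Rgs3 was higher by 2.06 (SE 0.19), with 4 of 17 lower and 3 higher. With its probes averaged, Rgs3 was higher by 0.39. The survival gene Bcl2 was lower by -1.43 (SE 0.26), a call lost with median scaling, in a list of 21 with 4 higher and 2 lower.

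Most measured genes of glycolysis and of the hypoxia response were lower in LSEC-primed samples. Of 21 measured genes of glycolysis and glucose or lactate transport 16 were lower and none higher (median -1.68), and of 23 hypoxia response genes 18 were lower and none higher (median -1.73), where 8.24% of all genes were called lower. Aldoc, an aldolase, lay at 7.47, 7.60, 7.37 and 7.87 in LSEC-primed samples, against 11.68, 11.59, 11.40, 11.62 and 11.50 in effector samples (log2 difference -3.98, SE 0.20, adjusted p = 9.89e-10 by limma). Mgarp, a mitochondrial protein induced by hypoxia, lay at 6.52, 7.00, 7.67 and 6.63, against 11.72, 11.35, 11.52, 11.40 and 11.48 (log2 difference -4.54, SE 0.29, adjusted p = 1.59e-08). Both were far lower in each LSEC-primed sample than in any effector sample. The glucose transporters Slc2a3 and Slc2a1 were lower by -2.23 (SE 0.12) and -2.19 (SE 0.15), lactate dehydrogenase A (Ldha) by -1.35 (SE 0.17), the growth-arrest gene Ndrg1 by -3.54 (SE 0.16) and the prolyl hydroxylases P4ha2, of collagen, and Egln3, of HIF, by -3.47 (SE 0.11) and -2.99 (SE 0.25).

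Not all glycolytic genes were even within the LSEC-primed group. Pfkp, a phosphofructokinase, lay at 8.79, 7.32, 10.65 and 10.17, against 11.83, 11.54, 11.72, 12.50 and 12.51 in effector samples (log2 difference -2.79, SE 0.54, adjusted p = 0.00144 by limma). Samples 14 and 15 were the higher of the LSEC-primed samples and 16 and 17 the higher of the effector samples, and the groups did not overlap. Without LSEC-primed sample 7 the Pfkp difference was -2.15. The list mean of glycolysis was lower by 1.67 log2 units among samples numbered to 10 (8.43 in LSEC-primed and 10.10 in effector samples) and by 1.36 among those above 10 (8.90 and 10.25). Pygl, glycogen phosphorylase of liver and immune cells, was lower by -3.55 (SE 0.22). No gene of the pentose phosphate pathway was called among 6 measured, at a median of -0.07. Of 20 genes of the tricarboxylic acid cycle 3 were lower, and of 29 respiratory chain and ATP synthase genes 7 were lower. The shares called were 15% and 24.1%, against 17.7% of all genes, and with median scaling none of these 10 genes was called.

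Sterol synthesis was lower along the pathway. Of 18 cholesterol synthesis and uptake genes 16 were lower and none higher (median -1.54). Fdps, which makes farnesyl diphosphate, lay at 8.88, 8.18, 8.42 and 9.33 in LSEC-primed samples, against 12.30, 12.04, 12.17, 12.50 and 12.56 in effector samples (log2 difference -3.61, SE 0.24, adjusted p = 3.14e-08 by limma). The enzymes Cyp51, Lss, Msmo1 and Sqle, which act on squalene or compounds made from it, were lower by -2.70 (SE 0.24), -2.53 (SE 0.16), -2.51 (SE 0.19) and -2.30 (SE 0.19). Over Fdps and these 4 enzymes, LSEC-primed means lay between 7.05 (Lss) and 8.70 (Fdps), and naive means between 6.79 (Lss) and 8.22 (Fdps). Scd1, the desaturase that makes oleate, lay at 6.45, 6.97, 6.21 and 6.79, against 10.97, 11.06, 11.01, 10.90 and 11.09 (log2 difference -4.40, SE 0.24, adjusted p = 2.87e-09), and 3 LSEC-primed arrays had it above background. Of 15 fatty acid synthesis genes 5 were lower, Scd2 among them (-2.01, SE 0.14), and of 21 fatty acid oxidation genes 6 were lower, none of either list being higher. With median scaling 3 and 2 genes of these lists were called lower.

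Amino acid synthesis genes that ATF4 controls were also lower. Of 22 genes of serine, asparagine and one-carbon synthesis with ATF4 targets 11 were lower and none higher (median -0.72). Asns, asparagine synthetase, lay at 8.87, 8.83, 8.50 and 8.65 in LSEC-primed samples, against 11.16, 11.13, 11.43, 11.18 and 11.77 in effector samples (log2 difference -2.62, SE 0.22, adjusted p = 3.05e-07 by limma). Psat1, of serine synthesis, lay at 10.21, 10.07, 10.03 and 10.45, against 11.82, 11.63, 11.65, 11.79 and 12.09 (log2 difference -1.61, SE 0.17). Both stood well above naive samples in LSEC-primed cells, with naive means of 6.09 ± 0.07 and 8.93 ± 0.11 (SD, n = 5), and the list mean was highest in effector sample 17. The mitochondrial folate enzyme Mthfd2 was lower by -1.38 (SE 0.18) and the stress genes Chac1 and Trib3 by -2.07 (SE 0.17) and -1.83 (SE 0.19). Of 24 purine and pyrimidine synthesis genes 6 were lower, led by Adssl1 (-2.58, SE 0.23), and 1 was higher.

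Among metal and redox genes single members stood out. Mt1, a metallothionein that binds zinc, lay at 9.12, 9.90, 11.16 and 9.87 in LSEC-primed samples, against 14.41, 14.21, 14.53, 14.41 and 14.58 in effector samples (log2 difference -4.42, SE 0.51, adjusted p = 9.69e-06 by limma). All LSEC-primed samples were below all effector samples, and naive samples were lower still at 7.28 ± 0.51 (SD, n = 5). Mt2 was at least 1.62-fold lower. Of 20 metallothionein and zinc transporter genes 3 were lower and 1 higher (median -0.06), a share of 20% called that lies near the 17.7% of all genes. Prdx4, a peroxiredoxin of the endoplasmic reticulum, was lower by -2.77 (SE 0.14), the one gene called lower of 22 iron, haem and oxidative stress genes. In that list 1 gene was called higher, and the share called, 9.09%, was below the 17.7% of all genes. Tg, which encodes thyroglobulin of the thyroid, lay at 6.39 to 7.16 in LSEC-primed samples and 10.26 to 11.06 in effector samples (log2 difference -3.87, SE 0.17).

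Genes of S phase and of mitosis were lower in LSEC-primed samples. Of 33 DNA replication and S phase genes 27 were lower (median -0.92), of 36 mitosis and spindle genes 29 were lower (median -1.48), and none of either list was higher. Top2a, the topoisomerase that untangles replicated chromosomes, lay at 7.93, 7.18, 9.99 and 9.19 in LSEC-primed samples, against 10.96, 10.91, 10.86, 11.27 and 11.29 in effector samples (log2 difference -2.48, SE 0.41, adjusted p = 0.000366 by limma). Aurkb, a kinase of chromosome segregation, lay at 7.67, 6.83, 9.29 and 8.23, against 10.62, 10.52, 10.37, 10.77 and 10.50 (log2 difference -2.55, SE 0.33, adjusted p = 3.35e-05). In both genes the LSEC-primed samples were spread more widely than the effector samples, with samples 14 and 15 above 4 and 7, and the groups did not overlap. The mean of the mitosis list was lower by 1.51 among samples numbered to 10 (7.34 in LSEC-primed and 8.85 in effector samples) and by 0.98 among those above 10 (7.82 and 8.80). The kinase gene Cdk1 was lower by -1.99 (SE 0.29), the DNA ligase Lig1 by -1.99 (SE 0.16) and the helicase loader Mcm10 by -1.94 (SE 0.18). Among G1 cyclins and brakes 5 of 23 were lower and 4 higher. The brake Cdkn1a was lower by -1.65 (SE 0.36) with overlapping groups, and Ccnd1 and Btg1, an anti-proliferative gene of resting lymphocytes, were higher, Ccnd1 at least 1.99-fold and Btg1 by 1.33 (SE 0.19), Btg1 without a call under median scaling. Ezh2, the Polycomb methyltransferase, was lower by -1.94 (SE 0.24).

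Replication-dependent histone genes, which are transcribed in S phase, were lower with a tighter spread than the mitosis genes. Of 50 measured 36 were lower and none higher (median -1.30). The list was drawn up after the values were seen. Its members H3c6, H2bc11, H3c4 and H2bc21 were among the 15 called genes with the lowest differences, so these counts describe the list and test nothing. H3c6 lay at 7.76, 6.94, 7.20 and 7.31 in LSEC-primed samples, against 11.07, 10.68, 10.92, 10.85 and 10.86 in effector samples (log2 difference -3.57, SE 0.22, adjusted p = 9.37e-09 by limma). H2bc11 lay at 6.54, 6.46, 6.93 and 6.50, against 9.87, 10.00, 9.91, 9.96 and 10.61 (log2 difference -3.46, SE 0.25), and H3c4 at 7.53, 7.18, 7.18 and 7.47, against 10.62, 10.72, 10.79, 10.85 and 10.87 (log2 difference -3.43, SE 0.19). No LSEC-primed sample came near an effector sample in these 3 genes, and samples 14 and 15 were not both above 4 and 7. By class, 10 of 12 measured H2B genes were lower with a median of -2.42, 9 of 16 H2A genes (-1.03), 7 of 9 H3 genes (-1.13) and 10 of 13 H4 genes (-1.47). The list mean was 7.52 to 7.79 in LSEC-primed samples and 9.13 to 9.28 in effector samples, with naive and memory means of 7.74 and 7.95. Copies of a class are near-identical in sequence and most of these transcripts end without a poly(A) tail, and how far probes or labelling separate the copies was not tested. H2bc21 also had another probe that was called in the opposite direction.

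Because the H2B genes moved together, their promoters were searched for the octamer ATTTGCAT on both strands, the site bound by the factor Oct-1 at H2B genes. It occurred in 5 of the 9 promoters available for the 10 H2B genes called lower and in 4 of 23 promoters of the other histone genes called lower, against 1.97% of 27025 gene promoters of the same length. The promoter of H2bc11, the gene with the lowest log2 difference of its class (-3.46), held no match. The octamer is a known element of H2B genes, and members not called were not searched. These shares therefore do not set apart the genes that moved. The promoter of H2bc12 (log2 difference -2.93, SE 0.16), chosen after its values were seen, is shown, 250 bases before to 50 after the start site in RefSeq on GRCm38.p6, chr13:22035571-22035870 on the plus strand, with the octamer, 30 bases before the start site, in capitals.
H2bc12: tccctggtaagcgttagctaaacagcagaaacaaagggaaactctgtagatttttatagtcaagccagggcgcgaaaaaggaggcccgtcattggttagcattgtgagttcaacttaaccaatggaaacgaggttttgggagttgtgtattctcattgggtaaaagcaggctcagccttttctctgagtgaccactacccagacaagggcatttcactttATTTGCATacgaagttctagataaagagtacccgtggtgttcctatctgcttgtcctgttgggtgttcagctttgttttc
The match describes these letters only, and binding was not measured.

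Translation genes divided. Of 19 aminoacyl-tRNA synthetases 10 were lower and 1 higher (median -0.52), led by Iars (-1.22, SE 0.18), and the exception was Wars, the tryptophan enzyme that interferon gamma induces (0.99, SE 0.27). With median scaling 1 synthetase was called lower and none higher, and without LSEC-primed sample 14 Wars lost its call. Without LSEC-primed sample 7 and without effector sample 17, 6 synthetases were called lower. Of 22 ribosome biogenesis genes 7 were higher and none lower (median 0.38). Heatr1, of ribosomal RNA transcription, lay at 11.84, 11.46, 10.88 and 11.48 in LSEC-primed samples, against 10.09, 10.16, 10.33, 10.55 and 10.64 in effector samples (log2 difference 1.06, SE 0.15, adjusted p = 8.08e-05 by limma). Sample 14 was the lowest of the LSEC-primed samples, and without it 11 members were called higher, while with median scaling none was. Of 30 cytosolic ribosomal protein genes 4 were lower and 1 higher, at a median of 0.03, and their share called, 16.7%, was below the 17.7% of all genes. With median scaling none of the 30 was called.

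Interferon-responsive families were higher in LSEC-primed samples. Of 36 type I interferon-stimulated genes 13 were higher and 1 lower (median 0.44), of 16 interferon-gamma-induced GTPases 8 were higher and none lower (median 0.57), where 9.51% of all genes were called higher. With median scaling 5 and 3 members were called higher. The type I list mean was 7.43 in LSEC-primed, 6.97 in effector, 7.58 in naive and 7.47 in memory samples. It was thus lowest in effector samples, and LSEC-primed samples lay near the resting groups. For the GTPases the means were 8.58, 7.76, 7.82 and 8.39 in that order, with the naive mean near the effector mean. Differences from the resting groups were not tested. Ifit3, which binds to the antiviral complex of its family, lay at 8.06, 8.39, 7.40 and 8.56 in LSEC-primed samples and was above background on no effector array, at least 3.46-fold higher (adjusted p = 0.00495 by limma). Gbp2, a guanylate-binding protein of host defence, lay at 10.81, 11.47, 12.56 and 11.60, against 10.05, 9.62, 9.37, 9.80 and 9.49 (log2 difference 1.95, SE 0.27, adjusted p = 6.61e-05). Sample 14 was the lowest for Ifit3 and the highest for Gbp2. Gvin1, a very large interferon-inducible GTPase, was higher by 2.32 (SE 0.33), Parp14 by 1.75 (SE 0.16) and Ifi47 by 1.91, a call lost without LSEC-primed sample 4 or 7 or effector sample 16 or 17 and with median scaling. Against the trend, Ifitm2, a membrane protein that blocks virus entry, lay at 6.51 to 7.39 in LSEC-primed samples and 8.65 to 10.09 in effector samples (log2 difference -2.26, SE 0.24). Endothelial and myeloid cells also respond to interferon, and their part was not tested.

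The promoters of these genes were searched for the interferon-stimulated response element, read as GAAA, any 2 bases and GAAA, on both strands. It occurred in 5 of 10 promoters available for the 13 type I interferon-stimulated genes called higher and in 6 of 7 for the 8 GTPases, against 3.99% of 27025 gene promoters. Both lists hold known interferon-induced genes, in which this element is common, and members not called were not searched. These shares therefore do not set apart the genes that moved. Ifit3 and Gbp2 are shown, one of each list, from RefSeq on GRCm38.p6, Ifit3 at chr19:34583279-34583578 and Gbp2 at chr3:142620413-142620712, both on the plus strand, with matches in capitals, which begin 156 and 122 bases before the start site in Ifit3 and 59 before it in Gbp2.
Ifit3: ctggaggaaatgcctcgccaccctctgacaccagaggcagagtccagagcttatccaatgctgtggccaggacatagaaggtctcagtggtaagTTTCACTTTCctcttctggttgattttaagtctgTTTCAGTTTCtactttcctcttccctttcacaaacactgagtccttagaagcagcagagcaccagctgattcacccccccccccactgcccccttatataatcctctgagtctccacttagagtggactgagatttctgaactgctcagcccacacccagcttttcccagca
Gbp2: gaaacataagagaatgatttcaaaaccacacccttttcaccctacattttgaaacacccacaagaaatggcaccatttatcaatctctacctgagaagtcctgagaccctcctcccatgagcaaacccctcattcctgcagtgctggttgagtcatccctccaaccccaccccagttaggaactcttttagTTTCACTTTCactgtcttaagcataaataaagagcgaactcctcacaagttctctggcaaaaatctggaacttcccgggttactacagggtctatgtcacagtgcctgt
Such a match is a description of the sequence, and no factor's binding was measured.

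The largest single gain was in the p200 family of DNA sensors. Ifi213 lay at 10.86, 11.27, 10.46 and 10.81 in LSEC-primed samples, against 6.46, 6.58, 6.41, 6.47 and 6.34 in effector samples (log2 difference 4.40, SE 0.16, adjusted p = 3.19e-11 by limma). Its level was close to those of naive (11.54 ± 0.33, SD, n = 5) and memory samples (11.62 ± 0.10, n = 3), so that the effector samples were the low ones. Mndal was 2.82-fold higher (log2 SE 0.19), and the 6 other measured members of the family were not called. Slfn1, a Schlafen gene of resting T cells, lay at 10.32, 11.03, 9.75 and 9.92, against 7.59, 7.44, 7.66, 7.31 and 7.01 (log2 difference 2.85, SE 0.27), with a naive mean of 10.04 ± 0.53 (n = 5). Gimap6, of the GTPases that keep resting lymphocytes alive, lay at 12.19, 12.45, 11.85 and 12.20, against 10.58, 10.47, 10.28, 10.75 and 10.40 (log2 difference 1.68, SE 0.14). None of these genes overlapped between the groups. Of 7 GIMAP genes 4 were higher and of 6 Schlafen genes 2 were higher, and with median scaling 0 and 1 were.

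Of 18 genes of MHC class I presentation and the immunoproteasome 6 were higher and none lower (median 0.32), including the subunit Psmb10 (1.28, SE 0.12), the class I regulator Nlrc5 (1.27, SE 0.24) and the peptide transporter Tap2 (1.22, SE 0.16). All 6 calls were lost with median scaling, and the list mean differed by 0.09 among samples numbered to 10 and 0.73 among those above 10. Of 25 subunits of the constitutive proteasome 2 were higher and 1 lower, a share of 12% called against 17.7% of all genes. Calhm6, a channel gene induced by interferon gamma, lay at 10.18, 10.26, 10.53 and 10.09 in LSEC-primed samples, against 6.60, 6.79, 6.84, 7.00 and 6.41 in effector samples (log2 difference 3.54, SE 0.16, adjusted p = 3.06e-10 by limma). The groups did not overlap, and naive and memory samples lay between them, at 8.15 ± 0.13 and 8.99 ± 0.46 (SD). Ubd, a ubiquitin-like modifier induced by interferon gamma, and the serine protease inhibitor Serpina3f were above background on no effector array, at least 9.73-fold and 7.46-fold higher.

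MHC class II genes did not move as 1 group. H2-Ab1, the class II beta chain, lay at 7.61, 7.48, 11.37 and 7.76 in LSEC-primed samples, against 11.06, 10.55, 10.41, 11.17 and 10.99 in effector samples (log2 difference -2.28, SE 0.70, adjusted p = 0.0364 by limma). In contrast H2-Aa, its alpha chain partner, lay at 7.65, 8.01, 10.06 and 6.62, against 6.07 to 6.36, and Cd74, the invariant chain, at 7.16, 6.36, 11.48 and 7.96, against 6.41 to 7.49, and neither was called. LSEC-primed sample 14 was high for all 3 genes, whereas the effector samples were high for H2-Ab1 alone. The H2-Ab1 call was lost under 10 of the 24 alternatives, among them leaving out LSEC-primed sample 4, 7 or 15 or any effector sample other than 10, and without sample 14 the H2-Ab1 difference was -3.22. The summed level of 14 dendritic cell markers, which include these genes, ran from 1586 to 9139 in LSEC-primed samples with the highest in sample 14, and from 2592 to 3633 in effector samples, and Itgax, Flt3, Clec9a and Cd209a were above background on no array of either group.

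**Figure D5:**
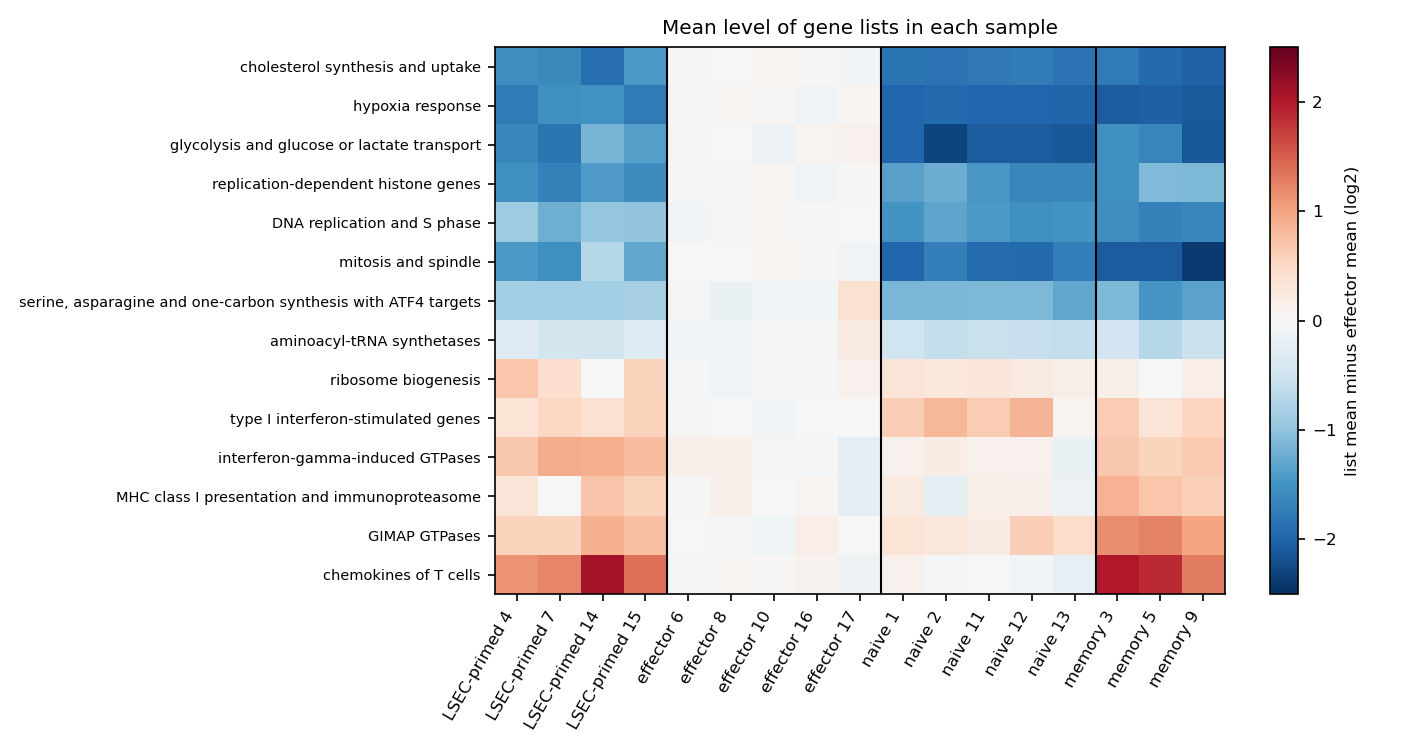
Mean log2 level of the measured members of 14 gene lists (rows) in each sample (columns, LSEC-primed and effector first, then naive and memory), minus the effector mean of that list, in log2 units from blue (below effector) to red (above). The top 8 rows, from cholesterol synthesis to the aminoacyl-tRNA synthetases, are blue in all 4 LSEC-primed samples, and the row of chemokines of T cells is reddest in LSEC-primed sample 14 and memory sample 3.

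Placed beside the resting groups, the LSEC-primed means of the hypoxia response, cholesterol and histone lists lay near those of naive and memory samples. The hypoxia list mean was 7.17 to 7.41 in LSEC-primed samples and 8.84 to 8.99 in effector samples, with means of 6.95 in naive and 6.86 in memory samples. The cholesterol list stood at 7.03 to 7.48 in LSEC-primed and 8.85 to 8.98 in effector samples, with 7.10 in naive and 7.00 in memory samples. Mitosis genes lay between, at 7.29 to 8.12 in LSEC-primed and 8.75 to 8.88 in effector samples, with 6.97 in naive and 6.64 in memory samples. Tests against the resting groups were not made for these values.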

How the data were processed

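Total RNA was amplified, labelled with biotin and hybridised to Illumina mouse bead arrays, per the labels' protocols. The authors deposited 1 table of bead intensity per probe and array, non-normalised per the file headers. The image analysis software is not given in the sources used here. Columns were matched to samples by the sample numbers, and 3 columns that matched no sample were not analysed here. With limma 3.58.1 in R 4.3.3 the intensities were background-corrected (normexp, offset 50), taken to log2 and quantile-normalised over 17 arrays. Probes above the array median on at least 3 arrays were kept, 35237 of 45281. Of all probes, 34885 had 1 gene symbol in the platform annotation, 18 had several and 10378 had none. The kept probe with the highest mean stood for a gene.

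A linear model with 4 group means was fitted with eBayes to all 17 arrays (13 residual degrees of freedom), with Benjamini-Hochberg adjustment over 23699 features, 7237 of them unnamed. A gene was called at an adjusted p under 0.05. The background level of an array was the mode of its values plus 3 SD of the side below the mode, a definition chosen after the data were seen. Where no array of a group passed it, a fold is a bound, the brighter group's mean against the higher, per array, of the probe's own value and the background level. Arrays of 23699 features, 200 of them changed, were simulated 10 times. On these the fit recovered 61.3%, 88.7% and 99.6% of changes of 1.5-fold, 2-fold and 4-fold, and 4.59% of its calls were false. The noise was independent and normal, with 1 variance per feature for all groups and no split by sample number. Recovery on the real arrays can therefore differ.

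Genes are named by rule: the 15 called genes at each end, as many as 6 called genes per list, and 50 landmarks, of which 42 were measured. The samples, lists, landmarks and tests were chosen with earlier results of these data known. Cell markers, class II genes, Eif2s3y and H2bc12 outside that rule were named after their values were seen. The list of replication-dependent histone genes was also drawn up after the values were seen. Alternatives changed the background correction, normalisation, filter, probe choice and model, or left out 1 array. The authors' own processed intensity values, all columns of which hold 1 common distribution, were another; how they were made is not given in the sources used here. A term for sample numbers above 10 was added after the data were seen.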

Additional observations from a re-analysis of the deposited data

Results flagged for a closer look

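Single samples far from the rest of their group were sought in 212 group values of 46 genes and 60 lists, and 17 were found, where chance gives about 1 in 20 groups. LSEC-primed sample 14 stood apart in 8 of them. It was highest for Lyz1 at 13.28 (next 8.49), for Lgals3 at 12.91 (next 9.00), for the list mean of macrophage and Kupffer cell markers at 8.07 (next 6.43), of dendritic cell markers at 7.77 (next 6.77), of natural killer cell markers at 7.56 (next 7.14), of iron, haem and oxidative stress genes at 9.66 (next 8.91) and of G1 cyclins and cell cycle brakes at 8.23 (next 7.97), and it was lowest for Icam2 at 8.25 (next 9.19).

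Effector sample 17 stood apart in 6. It was lowest for Klf2 at 6.83 (next 8.00), Egr3 at 7.78 (next 8.62) and Itgae at 6.94 (next 8.82), and highest for H2bc11 at 10.61 (next 10.00), the serine, asparagine and one-carbon synthesis list at 8.80 (next 8.37) and the aminoacyl-tRNA synthetase list at 9.17 (next 8.93). The other 3 were LSEC-primed sample 7, highest for the metallothionein and zinc transporter list at 7.47 (next 7.29), LSEC-primed sample 15, highest for the endoplasmic reticulum chaperone list at 8.04 (next 7.97), and effector sample 10, lowest for the type I interferon-stimulated list at 6.90 (next 6.99). LSEC-primed sample 14 and effector sample 17 were also the samples with a high level of the Y-linked gene Eif2s3y. The cause of these values was not tested.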

How the results depend on the processing

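Against 2921 genes called, 1565 higher and 1356 lower, median scaling called 1276 genes, 398 higher and 878 lower, and a test for changes beyond 1.5-fold (limma's treat) called 620, 255 higher and 365 lower, fewer by its construction. The cause of the median scaling result was not tested. Of the 1276 genes, 1211 were among the 2921. Averaging the probes of a gene left 572 genes called at 2-fold or more, against 889, and a normexp offset of 16 gave 1281, with the differences of 36 named genes farther from 0 by more than 1.5 times. Cyclic loess called 3502 genes, 49.5% of them higher. Leaving out 1 sample of either group gave 2505 to 2969 calls, 1310 to 1601 higher and 1187 to 1368 lower, with 815 to 979 at 2-fold or more. Leaving out memory sample 5, the array with the lowest mean intensity, gave 3295 calls, 1783 higher and 1512 lower. A term for sample numbers above 10, added after the data were seen, gave 3232 calls, and 343 genes were called for that term itself, 84 higher and 259 lower above 10. Of 269 named genes called, 116 were called under all 24 alternatives, and no named gene reversed. No paired analysis was possible because each sample has a number of its own. The 4 and 5 arrays limit the precision, and genes below background on every array of a group have only a bound there.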

Other observations

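Some lists not described above held single genes that differed. Of 15 killer lectin-like receptor genes 2 were higher and 2 lower. Klrd1, which encodes CD94, lay at 13.25, 13.68, 12.78 and 13.19 in LSEC-primed samples, against 12.57, 12.53, 12.35, 12.51 and 11.92 in effector samples (log2 difference 0.85, SE 0.19). Klrc1, which encodes the inhibitory partner NKG2A, was above background on no LSEC-primed array and at least 1.64-fold lower. The groups did not overlap for either gene of this receptor pair, and both calls were lost with median scaling, which called none of the list higher and 1 lower.

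Of 21 sialyltransferase and O-glycan genes 3 were higher and 3 lower. St6gal1, which adds sialic acid in one linkage, lay at 10.83, 10.63, 10.36 and 10.39 in LSEC-primed samples, against 12.30, 11.75, 11.80, 11.87 and 12.04 in effector samples (log2 difference -1.40, SE 0.22). St3gal6, which adds it in another, was higher by 0.98 (SE 0.13), a call lost with median scaling. Of 15 DNA methylation and Polycomb genes 6 were lower and 1 higher, and Uhrf1, which brings the maintenance methyltransferase to replicated DNA, was lower by -1.36 (SE 0.19).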
